A study of Mus musculus with 4 samples.

Results

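The genes described here encode the microtubule cytoskeleton and its motors: tubulins, kinesins, dynein and dynactin, proteins that bind or sever microtubules, and proteins of the centrosome. They were chosen by gene symbol alone and then had to average 1 FPKM or more in the 4 libraries. FPKM counts sequenced fragments relative to the length of a transcript and to the size of the library. Of 113 symbols that matched, 100 were kept, out of 11824 genes tested and 13824 listed in the deposited tables. The kept genes were 11 of 12 tubulins, 27 of 34 kinesins and kinesin light chains, all 22 dynein and dynactin genes, 15 of 16 binding and severing proteins and 25 of 29 centrosome proteins. The 13 genes left out averaged 0.238 to 0.949 FPKM. Kif6, at 0.949 FPKM, lay just outside the minimum, and Cep152, at 1.03 FPKM, just inside it.

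All libraries came from C2C12, an immortalised mouse myoblast line that fuses into myotubes in low serum. In 2 libraries the cells carried an siRNA against Mef2a (siMEF2A), and in the other 2 an siRNA of scrambled sequence. Both groups received 30 nM siRNA with Lipofectamine and then spent 48 h in differentiation medium (DM) with 2% horse serum. The comparison asked what silencing the transcription factor MEF2A does to gene expression in differentiating myoblasts. The knockdown was partial and made in a single cell line. Separate cultures are not mentioned in the labels, so each p-value reflects the spread of these 4 libraries alone, part of which may be technical.

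Microtubules are hollow polymers of alpha- and beta-tubulin dimers, nucleated by gamma-tubulin complexes. Most kinesins walk towards the fast-growing plus end, while cytoplasmic dynein, with its activator dynactin, walks towards the minus end. During myotube formation, nucleation is known to move away from the centrosome to the surface of the nuclei, and microtubules line up along the long axis of the cell, where motors space the nuclei.

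Mef2a, the targeted gene, stood at 12.7 and 14.3 FPKM in siMEF2A, against 25.8 and 32.2 FPKM in scrambled, a fall to 46.5% of the scrambled level. Relative to scrambled replicate 1, depth was estimated from low FPKM values as 0.849 and 0.847 in the siMEF2A libraries and 1.05 in scrambled replicate 2, with absolute depth unknown. Each estimate is the ratio that most of 600 low genes shared within 0.3%, here 14, 7 and 8 genes, so its support is weak. It also assumes that no further scaling was applied to the FPKM. Of 10 myoblast and myotube markers, 9 were tested, 6 of them fell and none rose, with a summed level of 504 to 567 FPKM in siMEF2A, against 882 to 974 FPKM in scrambled. Of neuron markers 3 of 7 were listed, of macrophage and adipocyte markers 1 each (Cd68 and Fabp4), and of endothelial markers none. Of fibroblast markers 3 of 4 were listed, with a summed level of 312 to 321 FPKM in siMEF2A and 220 to 307 FPKM in scrambled. In such bulk libraries, fewer cells of a type and less RNA per cell cannot be told apart.

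Microtubule genes were nearly level between siMEF2A and scrambled cells. One member, Katna1, rose and none fell at an adjusted p under 0.05 (limma on log2(FPKM + 1), adjusted over all genes tested), which is 1.0% of the members beside 1.76% of all genes (0.406% higher and 1.35% lower). At an unadjusted p under 0.05 there were 2 higher members, Katna1 and Map6, and 2 lower ones, Tuba4a and Tubb6, which is 4.0% beside 6.39% of all genes (3.09% higher and 3.3% lower). Groups did not overlap for 12 higher and 14 lower members, 26.0% of the members beside 28.0% of all genes. Over all genes 18.8% were higher and 9.13% lower without overlap. None of the total shares exceeded its background, while lower members without overlap were more frequent than in the background and higher ones less frequent, a difference that was not tested.

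On the log2(FPKM + 1) scale the median difference of the members, siMEF2A minus scrambled, was 0.02, beside 0.04 over all genes. Differences lay within 1.25-fold on that scale for 96 of 100 members, beside 93.5% of all genes. For 74 of 100 members the difference between groups was smaller than the mean difference between replicates, as it was for 8514 of the 11824 genes tested. The class medians were -0.08 for tubulins, 0.02 for kinesins, 0.03 for dynein and dynactin, 0.10 for binding and severing proteins and 0.02 for centrosome proteins. Under median-ratio scaling the kinesin, dynein and centrosome medians were -0.03, -0.02 and -0.03, so that no direction can be read for these classes, while tubulins stayed at -0.13 and binding proteins at 0.05. Of 11 tubulins, 5 were lower and 0 higher without overlap, beside 9.13% lower over all genes. Of 15 binding and severing proteins, 6 were higher and 0 lower, beside 18.8% higher over all genes. These differences from the background were not tested. Genes of a class are not independent, since Tuba1a, Tuba1b and Tuba1c have much sequence in common. Katna1, among the 6, had 1 low scrambled library.

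**Figure D1:**
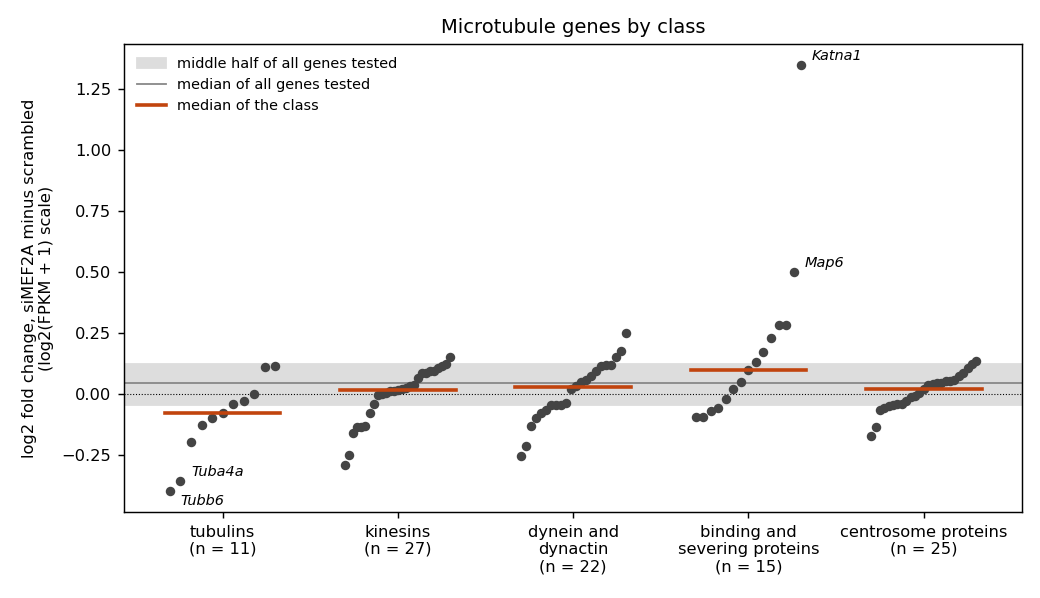
Log2 fold change (siMEF2A minus scrambled, log2(FPKM + 1) scale, vertical axis) of the 100 members in 5 classes (horizontal axis), 1 point per gene, with class medians as bars and the band between the quartiles of all genes tested in grey. Members with an unadjusted p under 0.05 are named, and class medians lie between -0.08 and 0.10.

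Levels differed far more between members than between groups. Of the 100 kept members, 11 averaged more than 100 FPKM and 33 less than 5 FPKM. On this per-length scale the highest was the dynein light chain Dynll1, at 539 FPKM over the 4 libraries, followed by the alpha-tubulin Tuba1a, at 479 FPKM. Summed over a class, tubulins reached 1377 and 1319 FPKM in siMEF2A, against 1423 and 1533 FPKM in scrambled. Dynein and dynactin reached 2369 and 2029 FPKM in siMEF2A, against 2461 and 2164 FPKM in scrambled. Tubulin sums were lower in both siMEF2A libraries, whereas dynein and dynactin sums overlapped. Kinesins summed to 236 and 265 FPKM in siMEF2A and 244 and 270 FPKM in scrambled. Centrosome proteins summed to 156 and 169 FPKM in siMEF2A and 157 and 164 FPKM in scrambled, and both of these classes overlapped too. The sum of binding and severing proteins was higher in both siMEF2A libraries, at 345 and 356 FPKM, against 303 and 324 FPKM in scrambled. This sum includes Katna1, at 23.2 and 18.3 FPKM in siMEF2A, against 17.3 and 2.94 FPKM in scrambled. Part of the gap is that 1 low value in scrambled replicate 2. With 2 libraries against 2, the exact permutation test cannot give a two-sided p below 0.333, which both non-overlapping sums reached.

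**Figure D2:**
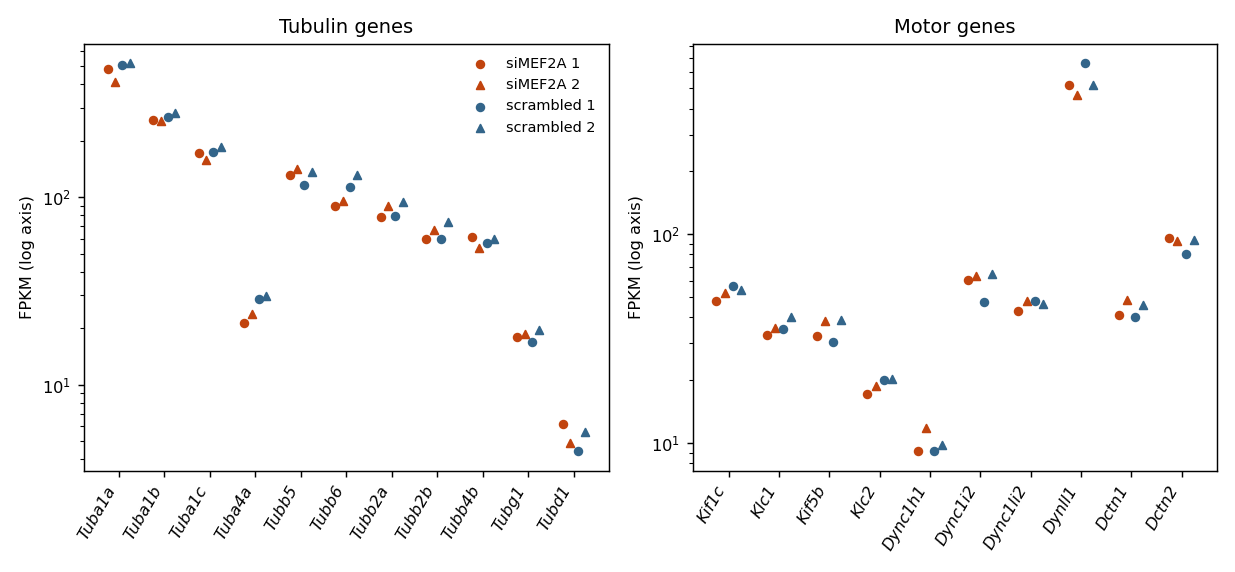
FPKM in each library (vertical axes, log scale) of the 11 kept tubulin genes (left) and of 10 motor genes (right), siMEF2A libraries left of scrambled ones, circles for replicate 1 and triangles for replicate 2. Levels span from Tubd1 and Dync1h1 at the low end to Tuba1a and Dynll1 at the high end, while libraries of one gene lie close together.

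The 4 alpha-tubulin genes kept were each lower in both siMEF2A libraries than in either scrambled library, though none passed the test. Tuba1a, the most abundant of them, stood at 481 and 412 FPKM in siMEF2A, against 504 and 517 FPKM in scrambled. Tuba1b stood at 258 and 255 FPKM in siMEF2A, against 269 and 280 FPKM in scrambled. Tuba1c stood at 173 and 158 FPKM in siMEF2A, against 175 and 186 FPKM in scrambled. These 3 genes are alike in sequence. Of the 50-base words in their most abundant transcripts, 72.9%, 73.8% and 61.0% also occur in transcripts of any other gene. The single gene sharing most was Tuba1c for Tuba1a (46.9%) and for Tuba1b (59.3%), and Tuba1b for Tuba1c (52.0%). How reads were split between them is therefore uncertain. The split also affects their sum, since the transcripts differ in length. With Tuba4a it stood at 933 and 848 FPKM in siMEF2A, against 977 and 1012 FPKM in scrambled (exact permutation p = 0.333). Over the 4 genes the log2 fold changes had a median of -0.16, and each stayed below 0 under the 3 other scalings run.

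Tuba4a, an alpha-tubulin whose transcript is mostly its own (1.52% of 50-base words shared), showed the widest gap of the alpha-tubulins. It stood at 21.4 and 23.9 FPKM in siMEF2A, against 28.8 and 29.7 FPKM in scrambled. Both siMEF2A libraries lay under both scrambled ones. The mean was 77.6% of the scrambled level, with a log2 fold change of -0.35 ± 0.15 (SE, limma adjusted p = 0.539). Tuba4a, at chr1:75214228-75219865 on the minus strand of mm10, shares 1379 exon bases with Stk16, a kinase gene on the opposite strand, and the sources used here state no strand in counting. Stk16 stood at 81.1 and 72.9 FPKM in siMEF2A, against 89.5 and 74.7 FPKM in scrambled, which overlapped. Its mean was 93.8% of the scrambled level, and the part of its reads in the values of Tuba4a was not tested. The myotube markers above moved with Tuba4a, and their part in its difference was not tested.

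The promoter of Tuba4a is shown because this gene had the widest log2 difference of the alpha-tubulins and shares few 50-base words with other genes. That of Tubb5 is shown because the beta-tubulins below are read against it. Both are from RefSeq (GRCm38.p6) and run from 250 bases before the RefSeq start to 50 after it, on the gene's own strand. Tuba4a is at chr1:75219245-75219544 (minus strand) and Tubb5 at chr17:35838252-35838551 (minus strand). Capitals mark an E-box (CANNTG, the site of MyoD-type factors), CCAAT boxes and GC boxes (GGGCGG on either strand).
Tuba4a: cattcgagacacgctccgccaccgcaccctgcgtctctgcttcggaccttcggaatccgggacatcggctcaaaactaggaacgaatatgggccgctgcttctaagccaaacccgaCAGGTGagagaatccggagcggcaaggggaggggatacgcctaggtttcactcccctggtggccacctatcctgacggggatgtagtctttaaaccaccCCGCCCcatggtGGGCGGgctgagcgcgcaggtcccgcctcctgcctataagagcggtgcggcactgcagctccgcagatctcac
Tubb5: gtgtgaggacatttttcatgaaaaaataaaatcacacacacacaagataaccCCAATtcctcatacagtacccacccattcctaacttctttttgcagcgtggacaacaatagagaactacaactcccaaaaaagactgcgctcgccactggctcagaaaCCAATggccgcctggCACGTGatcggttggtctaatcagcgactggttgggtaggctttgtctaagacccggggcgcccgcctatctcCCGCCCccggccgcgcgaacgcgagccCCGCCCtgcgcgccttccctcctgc
Each window holds 1 E-box and 2 GC boxes, and Tubb5 also holds 2 CCAAT boxes, while neither holds a MEF2 site as searched here.

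Beta-tubulins were uneven. Tubb6, a beta-tubulin known to rise in regenerating muscle, stood at 89.6 and 95.7 FPKM in siMEF2A, against 113 and 132 FPKM in scrambled. Its groups did not overlap, and its mean was 75.7% of the scrambled level, with a log2 fold change of -0.39 ± 0.17 (SE, limma adjusted p = 0.544, unadjusted 0.0249). Tubb5, a broadly expressed isotype, stood at 131 and 140 FPKM in siMEF2A, against 116 and 136 FPKM in scrambled, which overlapped. The summed myotube markers were also lower in both siMEF2A libraries, and their part in the difference of Tubb6 was not tested. The other 3 kept genes, Tubb2a, Tubb2b and Tubb4b, had log2 fold changes of -0.04, -0.08 and -0.03, all with overlap. In the most abundant transcript of each gene, they share 39.3% to 50.9% of their 50-base words with other genes. Tubb6 shares 0% and Tubb5 0.115%.

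Taken as a share of all beta-tubulin FPKM, which cancels any scaling between libraries, Tubb6 was close to constant within a group. It made up 21.4% in each siMEF2A library, against 26.6% in each scrambled library, a difference of -5.20 percentage points. Tubb5 made up 31.2% and 31.5% in siMEF2A, against 27.2% and 27.4% in scrambled, a difference of 4.0 points. The ratio of Tubb6 to Tubb5, chosen after their values were seen, was 0.685 and 0.681 in siMEF2A, against 0.977 and 0.970 in scrambled. For these shares and the ratio, the exact permutation test could give no p below 0.333. Over 10 families, 40 such shares were compared, of which 10 were higher and 7 lower in siMEF2A without overlap. Without any group effect, the exact permutation test expects such a separation at a rate of 0.333. Shares of a family are parts of the same total, so they are not independent. Those of Stmn1 and Stmn2, for instance, mirror each other, and both are counted. A lower Tubb6 share raises the other shares by itself, and its part in the Tubb5 difference was not tested. In FPKM, Tubb5 overlapped.

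**Figure D3:**
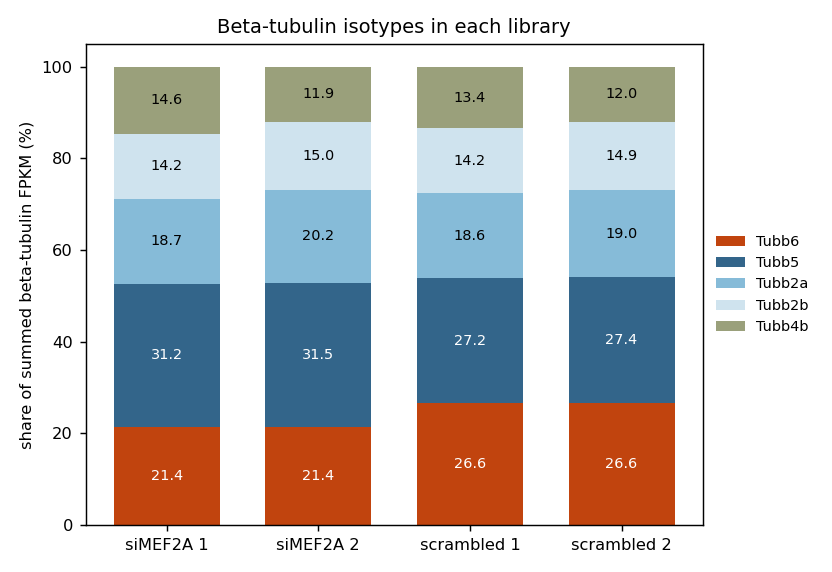
Share of each of the 5 beta-tubulin genes in the summed beta-tubulin FPKM (percent) in each library, siMEF2A libraries left of scrambled ones. Tubb6 takes 21.4% in both siMEF2A libraries and 26.6% in both scrambled ones, and Tubb5 takes more in siMEF2A.

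Tubg1, the gamma-tubulin of nucleating complexes, stood at 17.9 and 18.6 FPKM in siMEF2A and 16.9 and 19.6 FPKM in scrambled, a log2 fold change of 0.00. Tubd1, the centriolar delta-tubulin, had a log2 fold change of 0.12 with overlap, and epsilon-tubulin Tube1 averaged under 1 FPKM. Of 20 genes tested from the gamma-tubulin ring complex and pericentriolar list, 0 were called in either direction, with a median of 0.04. Of 24 tubulin folding and modification genes tested, 0 were called, with a median of 0.03. Nucleation and folding genes thus lay near the median of all genes.

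Among plus-end motors no member passed the test. Kif1c, a kinesin-3 and the most abundant heavy chain, stood at 48.0 and 52.3 FPKM in siMEF2A, against 56.5 and 53.8 FPKM in scrambled. Its groups did not overlap, with a log2 fold change of -0.14 ± 0.16 (SE). Kif5b, the kinesin-1 heavy chain needed for spacing of nuclei in mouse muscle, stood at 32.7 and 38.2 FPKM in siMEF2A and 30.5 and 39.0 FPKM in scrambled. These values overlapped, and Kif5b supplied 92.7% and 93.3% of kinesin-1 heavy chain FPKM in siMEF2A and 93.1% and 93.4% in scrambled, the remainder being Kif5c. Of the kinesin light chains, which link kinesin-1 to cargo, Klc1 stood at 32.7 and 35.5 FPKM in siMEF2A and 35.0 and 39.9 FPKM in scrambled. Klc2 stood at 17.1 and 18.7 FPKM in siMEF2A, against 20.0 and 20.2 FPKM in scrambled. Klc2 did not overlap while Klc1 did, and their log2 fold changes were -0.16 and -0.13.

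The widest gaps among kinesins were in genes near the minimum level. Kif18b, a mitotic kinesin that shortens plus ends, stood at 0.980 and 1.24 FPKM in siMEF2A, against 1.56 and 1.58 FPKM in scrambled (log2 fold change -0.29, limma adjusted p = 0.829). Kif21b, a kinesin-4 that limits microtubule growth, stood at 1.04 and 1.24 FPKM in siMEF2A, against 1.45 and 1.63 FPKM in scrambled (log2 fold change -0.25). Neither overlapped, and at such levels the scale understates a change. The 7 mitotic kinesins tested had 0 calls and a median of 0.00, with a summed level over the 11 listed of 15.8 and 17.0 FPKM in siMEF2A and 15.5 and 17.8 FPKM in scrambled. Beside them, 18 cell cycle genes tested also had 0 calls, with a summed level over the 20 listed of 113 and 112 FPKM in siMEF2A and 112 and 119 FPKM in scrambled. Both sums overlapped between groups, and the median levels of the genes tested were 1.54 FPKM for mitotic kinesins and 4.20 FPKM for cell cycle genes. Single genes were less level. Without overlap, Rrm2 and Birc5 stood lower, at 79.5% and 90.6% of the scrambled level, and Cdk1 and Bub1 higher, at 104% and 109%.

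Dynein and dynactin, the minus-end machinery, had 12 members above and 10 below 0 and no call. Over all genes 7552 lay above and 4272 below 0. Dync1h1, the motor heavy chain, stood at 9.12 and 11.8 FPKM in siMEF2A and 9.20 and 9.80 FPKM in scrambled, with overlap. The intermediate chain Dync1i2 stood at 60.1 and 62.9 FPKM in siMEF2A and 47.4 and 64.4 FPKM in scrambled. The second such chain, Dync1i1, known from neurons, stood at 1.25 and 1.49 FPKM in siMEF2A, against 1.64 and 1.84 FPKM in scrambled. Dync1i2 overlapped and supplied at least 96.7% of the FPKM of these chains in every library. Dync1i1 did not overlap, with a log2 fold change of -0.21. Dync2li1, a chain of the ciliary dynein, stood at 24.2 and 21.9 FPKM in siMEF2A, against 17.3 and 21.4 FPKM in scrambled (log2 fold change 0.25), higher without overlap but by only a narrow margin.

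Dynein light chains were the most abundant motor transcripts. Dynll1, a light chain that also serves other complexes, stood at 516 and 464 FPKM in siMEF2A, against 658 and 517 FPKM in scrambled. Its mean was 83.5% of the scrambled level, with a log2 fold change of -0.25 ± 0.21 (SE, n = 2 each), and the higher siMEF2A library lay just under the lower scrambled one. Dynlrb1, a roadblock-type chain, stood at 245 FPKM in both siMEF2A libraries, against 259 and 277 FPKM in scrambled, also without overlap. Dynlt1 is listed as 5 near-identical copies, one of them a processed pseudogene, and reads from them cannot be placed with certainty: the ratio of Dynlt1b to Dynlt1a was 1.48 in each siMEF2A library and 1.45 in each scrambled one. Their sum was 839 and 606 FPKM in siMEF2A and 828 and 650 FPKM in scrambled. The copies thus differed more between replicates of a group than between groups.

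None of the 6 dynactin subunits was called. Dctn6, a pointed-end subunit, was the single one without overlap, at 62.9 and 56.9 FPKM in siMEF2A, against 55.3 and 56.5 FPKM in scrambled (log2 fold change 0.10). Dctn2, or dynamitin, stood at 96.1 and 93.1 FPKM in siMEF2A and 80.6 and 94.4 FPKM in scrambled. Dctn3 stood at 106 and 80.0 FPKM in siMEF2A and 104 and 92.8 FPKM in scrambled. Both overlapped. The 15 genes tested for nuclear envelope and myonuclear positioning had 0 calls, with 13 above 0 and a median of 0.13. Over all genes, 7552 of 11824 lay above 0, with a median of 0.04, or -0.00 under median-ratio scaling. Ndel1, a dynein regulator in this list, stood at 124% of the scrambled level (limma adjusted p = 0.873).

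Binding and severing proteins held the sole called member and 6 of the 12 members higher without overlap. Map6, the stable tubule only polypeptide (STOP) that protects microtubules from cold, stood at 8.89 and 9.67 FPKM in siMEF2A, against 5.32 and 7.35 FPKM in scrambled. Both siMEF2A libraries lay above both scrambled ones. The mean was 146% of the scrambled level, with a log2 fold change of 0.50 ± 0.16 (SE, limma adjusted p = 0.128, unadjusted 0.0030). Without scrambled replicate 2 the log2 fold change was 0.70 and the adjusted p 0.0217, and without scrambled replicate 1 they were 0.30 and 1.0. Most of Map6 came from 1 transcript, at 7.61 and 8.33 FPKM in siMEF2A, against 4.55 and 6.45 FPKM in scrambled.

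Katna1, the catalytic p60 subunit of the severing enzyme katanin, passed the test, but a single library carried the difference. It stood at 23.2 and 18.3 FPKM in siMEF2A, against 17.3 and 2.94 FPKM in scrambled. That is a log2 fold change of 1.35 with an SE of 0.31 (adjusted p = 0.0128, limma). This SE is drawn towards the spread of all genes, with 2 residual and 30.3 prior degrees of freedom. The replicates of Katna1 differed by -0.33 in siMEF2A and -2.21 in scrambled on the log2 scale. Without scrambled replicate 2 its log2 fold change was 0.24. Among 14 alternative settings, 6 called it, and robust moderation did not. Its 2 listed transcripts differed in scrambled replicate 2. The coding transcript, of 1775 bases, stood at 20.4 and 15.8 FPKM in siMEF2A, against 14.9 and 0.749 FPKM in scrambled. The retained-intron transcript, of 825 bases, stood at 2.83 and 2.49 FPKM in siMEF2A, against 2.37 and 2.20 FPKM in scrambled. In the low library the coding transcript was low and the retained-intron transcript was not. The coding share of Katna1 FPKM was 87.8% and 86.4% in siMEF2A, against 86.2% and 25.4% in scrambled. Katna1, at chr10:7726000-7763150 on the plus strand of mm10, shares 131 exon bases with Gm20470 on the opposite strand, which stood at 1.76 and 2.37 FPKM in siMEF2A and 1.49 and 1.44 FPKM in scrambled. The coding transcript was not called in the fit over all transcripts (limma adjusted p = 0.880).

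The low value of Katna1 was not shared by Spast, or spastin, another severing enzyme, which stood at 5.29 and 5.82 FPKM in siMEF2A and 5.21 and 5.71 FPKM in scrambled, with overlap. Katnal1, a katanin-like gene, stood at 8.29 and 9.31 FPKM in siMEF2A, against 6.56 and 7.54 FPKM in scrambled (log2 fold change 0.28, limma adjusted p = 0.899), without overlap. All of the 50-base words of its most abundant transcript also occur in another annotated gene, so reads of that transcript are not its own with certainty. Katnal1 has 6 listed transcripts, and the others were not compared.

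**Figure D4:**
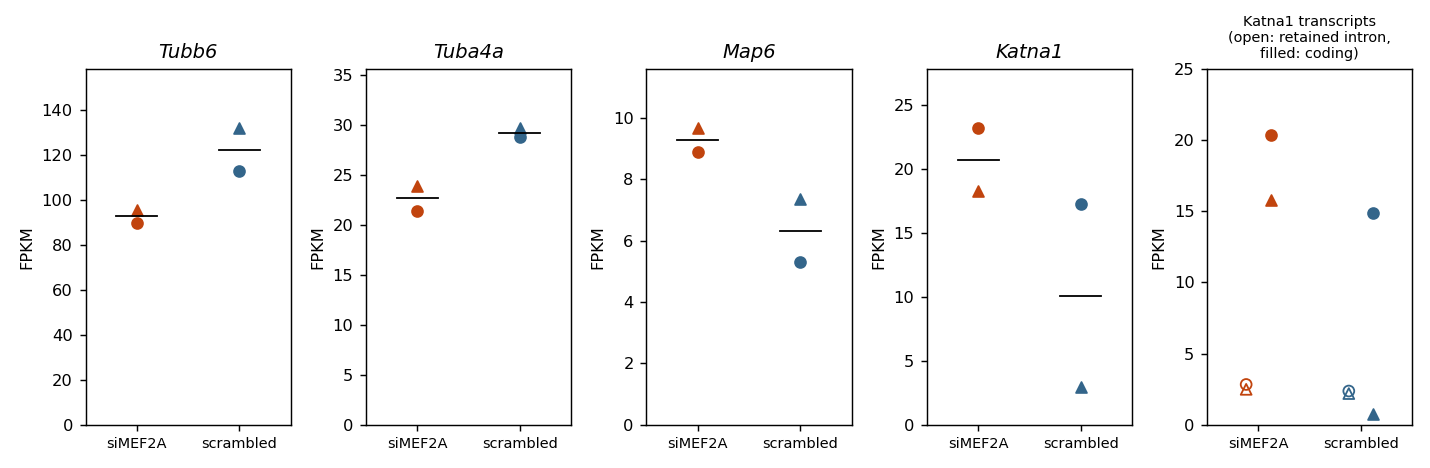
FPKM (vertical axes) per library in siMEF2A (left) and scrambled (right) for the 4 members with an unadjusted p under 0.05, with circles for replicate 1, triangles for replicate 2 and a line at the group mean, and in the last panel the 2 transcripts of Katna1 (filled for coding, open for retained intron). Tubb6 and Tuba4a lie lower and Map6 higher in both siMEF2A libraries, and the coding transcript of Katna1 lies at 0.749 FPKM in scrambled replicate 2.

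Of the end-binding proteins, which track growing plus ends, Mapre2 (EB2) stood at 11.3 and 13.5 FPKM in siMEF2A, against 8.95 and 11.1 FPKM in scrambled. Mapre1 (EB1) stood at 61.5 and 64.2 FPKM in siMEF2A and 49.6 and 62.2 FPKM in scrambled. Mapre3 (EB3), known to be needed for myoblast fusion in mouse cells, stood at 20.8 and 23.1 FPKM in siMEF2A and 21.6 and 25.4 FPKM in scrambled. Mapre2 was higher without overlap, and the other two overlapped. As a share of EB protein FPKM, Mapre3 made up 22.2% and 22.9% in siMEF2A, against 26.9% and 25.7% in scrambled, a difference of -3.78 points (exact permutation p = 0.333).

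Stathmins, which sequester tubulin dimers, were higher in both siMEF2A libraries. Stmn2 stood at 87.2 and 77.7 FPKM in siMEF2A, against 69.0 and 71.1 FPKM in scrambled, and Stmn1 at 47.1 and 44.2 FPKM in siMEF2A, against 42.0 and 41.1 FPKM in scrambled. Log2 fold changes were 0.23 and 0.13, above 0 under the 3 other scalings too, and neither gene was called. In the most abundant transcript of Stmn1, 36.5% of the 50-base words also occur in other genes, against 0% for Stmn2. Part of the Stmn1 reads thus cannot be placed with certainty. Map4, the main lattice-binding protein outside neurons, stood at 41.7 and 53.2 FPKM in siMEF2A and 46.3 and 54.8 FPKM in scrambled, with overlap. Mapt, the neuronal tau gene, was near the minimum, at 1.23 and 1.59 FPKM in siMEF2A and 1.38 and 1.66 FPKM in scrambled.

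Other tip, lattice and crosslinking genes are not taken by the symbol rule. Of 37 tested, 1 fell and 0 rose, beside 1.35% lower and 0.406% higher over all genes. The gene that fell was Trim54, or MURF3, a muscle ubiquitin ligase that stabilises microtubules. It stood at 1.72 and 1.63 FPKM in siMEF2A, against 2.83 and 3.22 FPKM in scrambled, with a log2 fold change of -0.59 ± 0.15 (SE, limma adjusted p = 0.0247). Groups did not overlap. The call held without scrambled replicate 1 (adjusted p = 0.0464), and was lost without siMEF2A replicate 1, siMEF2A replicate 2 or scrambled replicate 2 (adjusted p = 0.0674, 0.133 and 0.200). Under 3 other scalings the adjusted p ranged from 0.0314 to 0.0617, so 1 of these settings lost the call too. Trim55 and Trim63, its MURF relatives in muscle, stood at 73.0% and 66.5% of the scrambled level with adjusted p-values of 0.265 and 0.109. Dclk2, a doublecortin-like kinase, stood at 5.70 and 5.84 FPKM in siMEF2A, against 3.99 and 3.72 FPKM in scrambled, with an adjusted p of 0.113. The myotube markers moved with the MURF genes, and their part in these differences was not tested.

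On the log2(FPKM + 1) scale all 25 centrosome proteins lay within 1.25-fold. So did all 27 kinesins and all 22 dynein and dynactin genes, but that scale narrows differences near 1 FPKM. In FPKM, Kif18b, Kif21b and Dync1i1 stood at 70.6%, 73.8% and 78.7% of the scrambled level. Cep170, which binds the subdistal appendages of mother centrioles, stood at 17.1 and 20.6 FPKM in siMEF2A and 15.5 and 18.5 FPKM in scrambled. Pcnt, or pericentrin, the scaffold of the pericentriolar material, stood at 1.15 and 1.47 FPKM in siMEF2A and 1.12 and 1.34 FPKM in scrambled. Nin, or ninein, which anchors minus ends, stood at 1.33 and 2.07 FPKM in siMEF2A and 1.59 and 1.80 FPKM in scrambled. Cep170, Pcnt and Nin overlapped. The 3 centrosome members without overlap were Cep63, Cep70 and Cep76, with log2 fold changes of 0.13, 0.07 and -0.13.

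Transcripts of the members were then read one by one. Of 279 listed transcripts of the 113 symbols, 181 were tested in a fit over 23601 transcripts, and 0 were called, beside 0.225% of all transcripts (limma, adjusted p under 0.05). At an unadjusted p under 0.05 there were 5 higher and 8 lower, 7.18% beside 5.68% of all transcripts (2.71% higher and 2.97% lower), and the smallest adjusted p was 0.506. That transcript, of Tuba1a, stood at 47.8 and 30.6 FPKM in siMEF2A, against 63.6 and 64.1 FPKM in scrambled. The shares of transcripts within a gene were named by the size of their difference among those without overlap. In Tubd1 1 coding transcript supplied 19.7% and 15.9% in siMEF2A, against 36.2% and 29.0% in scrambled. In Kif5b the transcript of 6032 bases supplied 76.8% and 82.1% in siMEF2A, against 90.4% and 85.6% in scrambled. Neither transcript was called, with limma adjusted p-values of 0.991 and 1.0.

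MEF2 sites were searched in the same RefSeq promoter windows, which were matched for 71 of the 100 members. In all, 3 members, Cep164, Cep44 and Kif2c, held a site that fits the MEF2 consensus (read on both strands), 4.23% of the matched members beside 3.7% of the 27025 genes in the table. They are shown, with 30 bases each on the gene's own strand and the match in capitals, because the study silenced a MEF2 factor. The windows are chr9:45828884-45828913 for Cep164, chr8:56550517-56550546 for Cep44 and chr4:117178986-117179015 for Kif2c, all on the minus strand of GRCm38.p6.
Cep164: tagtagaTTATTATTAAtattatgaatgct
Cep44: aggtctaccttttcatccctTTAAATTTAG
Kif2c: tttatcagttTTAAATATAAacaaaagtgg
Cep164 and Kif2c match 243 and 233 bases before the start, and Cep44 40 bases after it. None of the 3 genes passed the test: Cep164 had a log2 fold change of -0.01, Cep44 of 0.02 and Kif2c of 0.10, all with overlap. E-boxes were in 66.2% of matched members beside 75.0% of the 27025 genes, CCAAT boxes in 49.3% beside 41.1%, and GC boxes in 74.6% beside 38.2%. TATAAA was in 11.3% beside 15.7%. For all of these motifs the background is unlike the members. Members had to reach the minimum level in these cells, while the 27025 genes outnumber the 11824 that did so and were tested. The part of this filter in the differences, that of GC boxes included, was not tested. A match is a description of letters, not of binding.

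Within each group the members also differed between libraries along transcript length. The difference of the library numbered 2 from that numbered 1, on the log2 scale, was correlated across 99 members with log2 transcript length, with Pearson's r of 0.64 in siMEF2A and 0.29 in scrambled. These points share libraries, and genes are not independent replicates. In 33 members of at least 4000 bases the median difference was 0.20 in siMEF2A, with 32 above 0, and 0.18 in scrambled, with 29 above 0. In 12 members under 1500 bases it was -0.15 in siMEF2A, with 2 above 0, and -0.10 in scrambled, with 5 above 0. Without the near-identical Dynlt1 copies, 9 such members had a median of -0.14 in siMEF2A and 0.03 in scrambled, so the lower values of short members in scrambled rest on those copies. Over 11650 genes the replicate differences had an r of 0.35 with length in siMEF2A and 0.35 in scrambled, so the trend was not limited to the members. The difference between groups had an r of 0.04 and a Spearman's rho of 0.15 with length over the members, and an r of 0.22 and a rho of 0.26 over all genes.

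**Figure D5:**
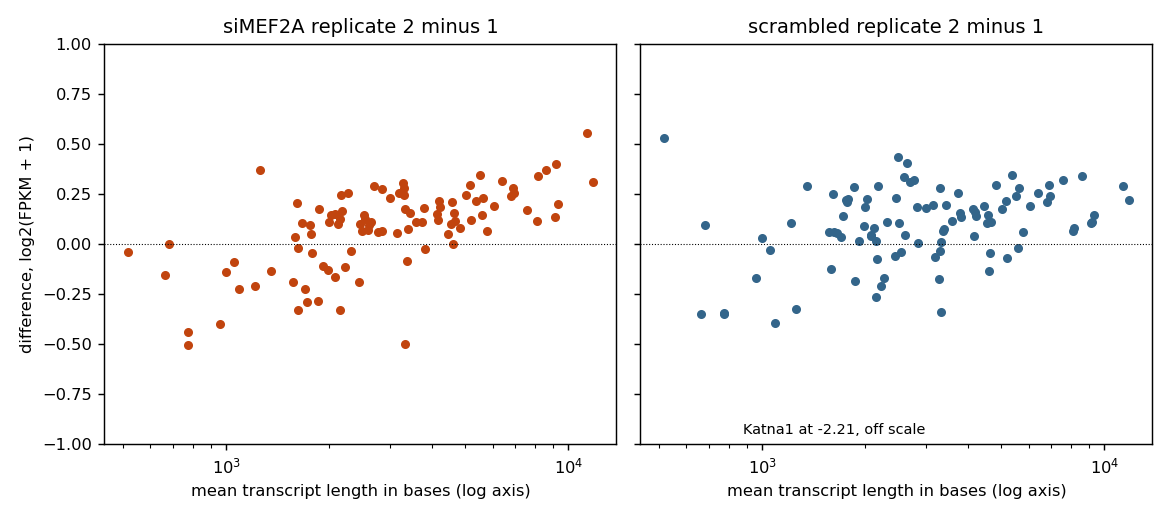
Difference between the 2 libraries of a group (replicate 2 minus replicate 1, log2(FPKM + 1) scale, vertical axis) against mean transcript length in bases (horizontal axis, log scale) for 99 members, siMEF2A left of scrambled. Most members of at least 4000 bases lie above 0, 32 of 33 in siMEF2A and 29 of 33 in scrambled, and Katna1 in scrambled, at -2.21, lies off the scale.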

How the data were processed

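RNA was measured in 4 C2C12 libraries, 2 of siMEF2A and 2 of scrambled. Per the file headers, the authors deposited FPKM for each Ensembl transcript. Tools named in the submitters' processing notes are Bowtie, CASAVA, Cufflinks, TopHat and Trimmomatic, with the build mm10. Scaling between libraries and use of strand: not given in the sources used here. FPKM were summed per symbol, 26 small RNA symbols were dropped, and 11824 genes averaging 1 FPKM or more entered the test. As log2(FPKM + 1), which understates changes of low genes, they were fitted with limma 3.58.1 in R 4.3.3 (intensity trend, 2 residual and 30.3 prior degrees of freedom, two-sided). Adjustment followed Benjamini and Hochberg over all genes, and the test was tested on simulated data. Sums and shares were compared with an exact permutation test over libraries. GENCODE M21 (mm10) gave lengths, strands and overlaps for 97.3% of transcripts, and RefSeq the promoters. Named genes were Mef2a, members with an unadjusted p under 0.05, the 3 most abundant of each class and family, and the 10 widest without overlap. Genes named outside this rule (such as Pcnt, Nin, Mapt, Spast, Dync1h1, Ndel1, Cep63, Cep70, Cep76 and those holding a MEF2 site) were chosen for their role or after their values were seen. Members and lists were chosen with earlier results of these data known. Alternatives changed the filter, pseudocount, scaling, moderation, replicate block and the libraries used.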

Additional observations from a re-analysis of the deposited data

How the results depend on the processing

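Of 556 recomputed values of 40 named genes, 545 kept their side of the threshold. Direction did not always hold for genes near 0. Kif5b had a log2 fold change of 0.04. Without scrambled replicate 1 it stood at 32.7 and 38.2 FPKM in siMEF2A, against 39.0 FPKM in scrambled replicate 2. The 8 that lost a call were all of Katna1, and the 3 that gained one were of Map6 (replicate block, and without scrambled replicate 2) and Tubb6 (replicate block). Among microtubule genes 1 was called higher. This count was 0 with no filter on low values and with median-ratio, upper-quartile or quantile scaling. It was also 0 without a trend, with robust moderation and with small RNA symbols kept. Without siMEF2A replicate 1, siMEF2A replicate 2 or scrambled replicate 1, the log2 fold change of Katna1 was 1.18, 1.51 and 2.45. Without scrambled replicate 2 it was 0.24. Over all genes, calls were 48 higher and 160 lower. Higher calls were 29 with no filter, 14 with median-ratio scaling, 14 with upper-quartile scaling, 11 with quantile normalization, 25 without a trend, 73 with robust moderation and 23 with small RNA symbols kept, and 41 to 73 leaving out 1 library, with 73 without scrambled replicate 2. Lower calls were 99 at a minimum mean of 5 FPKM and 135 to 158 leaving out 1 library. Lower genes were 76.9% of calls, against 90.6%, 90.4% and 90.7% under median-ratio, upper-quartile and quantile scaling, with the median of all genes at 0.04 as deposited and -0.00 under median-ratio scaling. Member transcripts had 0 calls, against 1 higher at a minimum mean of 5 FPKM and 0 to 1 in either direction leaving out 1 library. The dynein and dynactin median log2 fold change, 0.03, ranged from -0.07 to 0.12, and the binding and severing sum was higher by 24.8 FPKM under median-ratio scaling, against 37.2 as deposited. The causes were not tested.

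The labels number libraries 1 and 2 in each group without saying that a number marks a shared culture or day. Differences between the numbered libraries correlated across groups, with r of 0.29 over all genes and 0.43 over the members. With the number as a replicate block, 223 genes were called higher and 291 lower, and among microtubule genes 2 were higher (Katna1, adjusted p = 0.00825, and Map6, adjusted p = 0.00639) and 1 lower (Tubb6, adjusted p = 0.0423). Tuba4a had an adjusted p of 0.0507. Absolute depth is unknown, so no counting error can be given for members near 1 FPKM.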

Other observations

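Several microtubule genes lie just outside the symbol rule and were read from the same fit, as values with no call. Kifap3, the cargo adaptor of kinesin-2, stood at 25.9 and 28.8 FPKM in siMEF2A and 18.9 and 27.5 FPKM in scrambled, a log2 fold change of 0.25 with overlap. Its motor partners Kif3a and Kif3b had log2 fold changes of 0.03 and 0.09. Minus-end kinesins Kifc2 and Kifc3 had log2 fold changes of -0.14 and -0.18. Cep57l1, a relative of Cep57, stood at 2.35 and 2.44 FPKM in siMEF2A, against 2.91 and 3.32 FPKM in scrambled, without overlap, while Cep57 itself had a log2 fold change of -0.03. Tubgcp2 to Tubgcp6, the gamma-tubulin complex proteins, lay between -0.01 and 0.12. Map9, a spindle-associated protein, stood at 1.68 and 1.81 FPKM in siMEF2A, against 1.41 and 1.49 FPKM in scrambled.

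Among kept members, Kif9, an axonemal kinesin, stood at 1.08 and 1.52 FPKM in siMEF2A, against 1.06 FPKM in both scrambled libraries. Kif6, left out for its level, stood at 1.29 and 1.05 FPKM in siMEF2A, against 0.728 and 0.729 FPKM in scrambled. A processed transcript of Cep85 supplied 0.165% and 0% of that gene's FPKM in siMEF2A, against 29.9% and 5.99% in scrambled. These genes were chosen after their values were seen.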
